A study of Drosophila melanogaster with 2 samples.

Results

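ChIP-seq peaks of chromosome 4, the small dot chromosome of Drosophila melanogaster, were examined in larvae that carry Cnc tagged with green fluorescent protein (GFP). All peaks on chromosome 4 in the pooled peak list on the dm6 build were taken, which gave 818 of the list's 30000 peaks. Beside them stand the 790 chromosome 4 peaks of the replicate 1 list, the 818 of the replicate 2 list and the 39 of the reproducible list, which holds 6153 peaks in all.

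Chromatin was taken from whole larvae of both sexes in the wandering stage of the third instar, fragmented by sonication and precipitated with an antibody against GFP. The flies were a stable transgenic line in which GFP is fused to the C-terminal end of cnc, and their age is given as unknown. The 2 biological replicates form 1 group. No control or untagged sample was analysed here, the antibody binds the tag and not Cnc itself, and whole larvae mix all tissues, so a peak says nothing of the tissue it came from. The labels do not say whether the line also has an untagged copy of cnc. The lists give no read counts, so the depth behind a peak is unknown, and the authors' signal value per peak is a score on an unstated scale.

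Cnc is the fly relative of vertebrate Nrf2, a basic leucine zipper protein that pairs with the small Maf protein Maf-S and is known for switching on genes of the oxidative stress response at antioxidant response elements. Chromosome 4 is the smallest chromosome of the fly. It is known for mixing active genes with repeats and with heterochromatin marked by HP1a and by methylated histone H3 lysine 9, and the protein Pof binds along it.

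The sequences shown are the strongest peaks whose summit windows hold no untranslated exon sequence, followed by windows with the word CGATA, which 13 of the 39 reproducible summit windows held. Each window spans 101 bp around the summit, on the plus strand of dm6 as held by RefSeq, and capitals mark CGATA or its reverse complement. A final line gives a short stretch around the sole match to the Cnc-Maf word TGACNNNGC among the 39 reproducible peaks, in the start region of Actbeta, with the match in capitals.
gw, chr4:660041-660141: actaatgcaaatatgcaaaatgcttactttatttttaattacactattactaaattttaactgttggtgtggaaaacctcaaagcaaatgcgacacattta
PlexA, chr4:1027173-1027273: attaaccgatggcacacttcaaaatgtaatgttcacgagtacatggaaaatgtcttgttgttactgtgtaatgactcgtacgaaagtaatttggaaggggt
upstream of zfh2, chr4:497847-497947: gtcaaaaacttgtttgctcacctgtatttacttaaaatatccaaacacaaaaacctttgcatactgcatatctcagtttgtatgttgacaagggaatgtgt
Asator, chr4:486568-486668: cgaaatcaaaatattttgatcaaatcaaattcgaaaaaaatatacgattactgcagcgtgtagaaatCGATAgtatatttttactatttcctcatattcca
pho, chr4:1181750-1181850: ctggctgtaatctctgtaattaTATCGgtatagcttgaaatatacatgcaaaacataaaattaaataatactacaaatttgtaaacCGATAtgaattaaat
PIP4K, chr4:1196858-1196958: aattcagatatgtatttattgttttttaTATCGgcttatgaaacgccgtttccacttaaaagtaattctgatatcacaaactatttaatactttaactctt
Actbeta, chr4:1084758-1084787: tggttgctaaaTGACATTGCatactttgtg

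Chromosome 4 had the most pooled peaks per length of the 6 arms, and this lead was carried by its weak peaks. The pooled list had 607 peaks per Mb on chromosome 4, against 174 to 247 per Mb on the other arms, with the X lowest and 2L highest. The replicate 1 list had 586 per Mb on chromosome 4 and the replicate 2 list 607 per Mb. Relative to the other 5 arms together, the density was 2.76-fold in the pooled list, 2.66-fold in replicate 1 and 2.76-fold in replicate 2. Both replicates thus gave almost the same ratio when every peak was kept.

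The ratio fell as weaker peaks were left out. Among the highest 15000 peaks of the pooled list, chromosome 4 had 278, or 206 per Mb, which is 1.86 times the density of the other arms. At a q value of 0.05 or lower, as given in the authors' list, 110 peaks were left on chromosome 4 at 81.6 per Mb, against 70.8 per Mb on the other arms, a ratio of 1.15. The 39 reproducible peaks, which are the chromosome 4 members of the 6153 highest pooled peaks, stood at 28.9 per Mb, a ratio of 0.627. At a q value of 0.05 or lower the replicate lists kept ratios of 1.81 and 1.31, both still above 1, over 240 and 133 peaks of chromosome 4. Among the highest 6153 peaks of each replicate list the ratios were 0.549 and 0.887, both under 1.

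**Figure D1:**
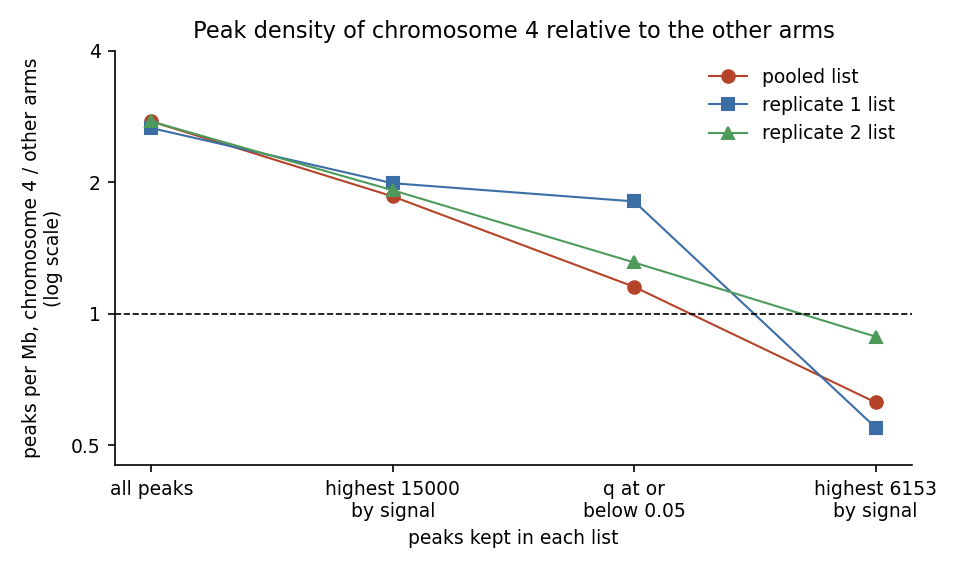
Peaks per Mb on chromosome 4 divided by peaks per Mb on the other 5 arms (log scale), for all peaks and 3 stricter selections of the pooled list and of each replicate list; the dashed line marks equal density. All 3 lists start between 2.66 and 2.76 and end below 1.

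Most chromosome 4 peaks were weak by the authors' own measures. The median signal value was 91.3 on chromosome 4 and 107 on the other arms of the pooled list, a ratio of 0.853. The ratio was 0.863 in replicate 1, from medians of 41.2 and 47.7, and 0.857 in replicate 2, from medians of 46.6 and 54.4. In the pooled list 13.4% of chromosome 4 peaks had a q value of 0.05 or lower, against 32.1% on the other arms. The shares were 30.4% and 44.7% in replicate 1 and 16.3% and 34.2% in replicate 2, lower on chromosome 4 in each list. Signal values on chromosome 4 ran from 62.5 to 1387, with quartiles of 74.6 and 119, and the highest of them ranked 275 in the whole list. The median peak width was 364 bp on every arm of the pooled list, and the widest peak was 366 bp on chromosome 4 and 453 to 708 bp on the other arms.

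Most pooled peaks stood alone. They merged into 709 regions, of which 608 held 1 peak and 101 held the other 210, and no region held more than 3. The median distance from one summit to the next was 1037 bp, and the peaks covered 20.9% of the chromosome, against 5.84% to 8.30% of each other arm. Of the 8 regions with 3 peaks, the longest ran from 846211 to 847118 (908 bp), in the intergenic stretch between fd102C and Gyf, with signal values of 78.7 or lower. The region of 3 peaks with the highest signal, 219, lay at the start of Ephrin.

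Chromosome 4 had lower shares of peaks in the reproducible list and of summits near a start of transcription than the pooled list as a whole. Over all pooled peaks of the 6 arms, 20.5% were in the reproducible list, and on chromosome 4 the share was 4.77%. That list is the 6153 highest pooled peaks by signal value. The share thus follows from the signal values and is not a separate measure of agreement between replicates. A summit no farther than 1000 bp from an annotated start of transcription was called a promoter summit, and 44.7% of all pooled summits met this. On chromosome 4 it was 226 of 818, or 27.6% (95% exact binomial interval 24.6% to 30.8%, counting error only), while 18.5% of the chromosome's bases lie that near a start site. The share of promoter summits divided by the share of such bases was 1.49 on chromosome 4 and 1.71 to 2.01 on each other arm.

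Among the 39 reproducible peaks the share of promoter summits was higher on chromosome 4. It was 32 of 39, or 82.1% (66.5% to 92.5%), beside 65.9% of all reproducible peaks of the 6 arms. Among peaks ranked 6154 to 15000 it was 34.7% on chromosome 4 (28.7% to 41.1%) and 47.9% on the other arms. In the lowest 15000 it was 20.6% (17.2% to 24.2%) against 34.8%. Chromosome 4 was therefore above the other arms in the highest bracket, where its interval just misses their value, and below them in both others. Among pooled peaks with a q value of 0.05 or lower the share was 61.8% on chromosome 4 and 61.7% on the other arms.

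**Figure D2:**
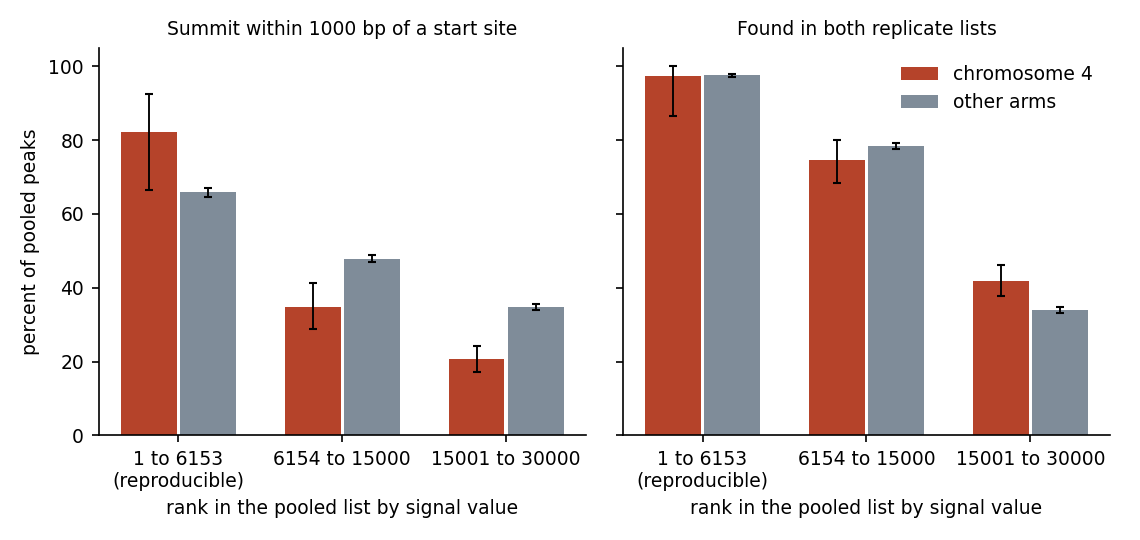
Percent of pooled peaks with a promoter summit (left) and percent overlapping a peak of both replicate lists (right), by rank in the pooled list, for chromosome 4 and the other 5 arms; bars are shares and error bars exact 95% binomial intervals. Promoter summits fall from 82.1% to 20.6% on chromosome 4, and presence in both lists from 97.4% to 41.9%.

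Chromosome 4 peaks were found in both replicates somewhat less often than others. Overlap by at least 1 bp with a peak of each replicate list was seen for 60.2% of all pooled peaks, for 442 of 818 on chromosome 4 (54.0%, 50.5% to 57.5%) and for 58.6% to 62.1% on each other arm. A further 334 chromosome 4 peaks were in 1 replicate list and 42 were in neither. Counted from the replicate lists themselves, 57.5% of replicate 1 peaks on chromosome 4 touched a replicate 2 peak and 57.6% the other way round, against 61.2% to 65.7% and 61.2% to 64.4% on the other arms. The peaks lie so densely that 38.4% of start positions on chromosome 4 would let an interval of replicate 1 width touch a replicate 2 peak, against 13.8% on the other arms.

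Within rank brackets the order changed. Among reproducible peaks 38 of 39 were in both lists (97.4%), beside 97.6% on the other arms. Ranks 6154 to 15000 gave 74.5% on chromosome 4 and 78.4% elsewhere. In the lowest bracket chromosome 4 was the higher, at 41.9% (37.7% to 46.1%) against 34.0%. The shares of start positions that would touch a peak, 38.4% and 13.8%, stand beside that difference, and their part in it was not tested. Among the 110 pooled peaks with a q value of 0.05 or lower, 94.5% were in both lists, and 94.8% on the other arms.

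Signal values of the replicates ran less closely together on chromosome 4. Across the 442 peaks in both lists, Spearman's correlation of replicate signal values was 0.366 and Pearson's r of log2 values 0.568, while the other arms gave 0.709 to 0.763 and 0.813 to 0.832. Chromosome 4 has few strong peaks, so the correlation was also taken within brackets. For the 38 reproducible peaks Spearman's correlation was 0.596, against 0.732 to 0.784 on the other arms. Pooled signal values of reproducible peaks still varied less on chromosome 4, with quartiles of 231 and 389 against 258 and 565. The part of this narrower range in the correlation was not tested. For the 404 other peaks Spearman's correlation was 0.204, against 0.382 to 0.408. In ranks 6154 to 15000 it was 0.0263 on chromosome 4, over 178 peaks, and 0.223 to 0.257 on the other arms. These are descriptions across peaks that share 2 libraries and often a neighbour, so no p-value is given.

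**Figure D3:**
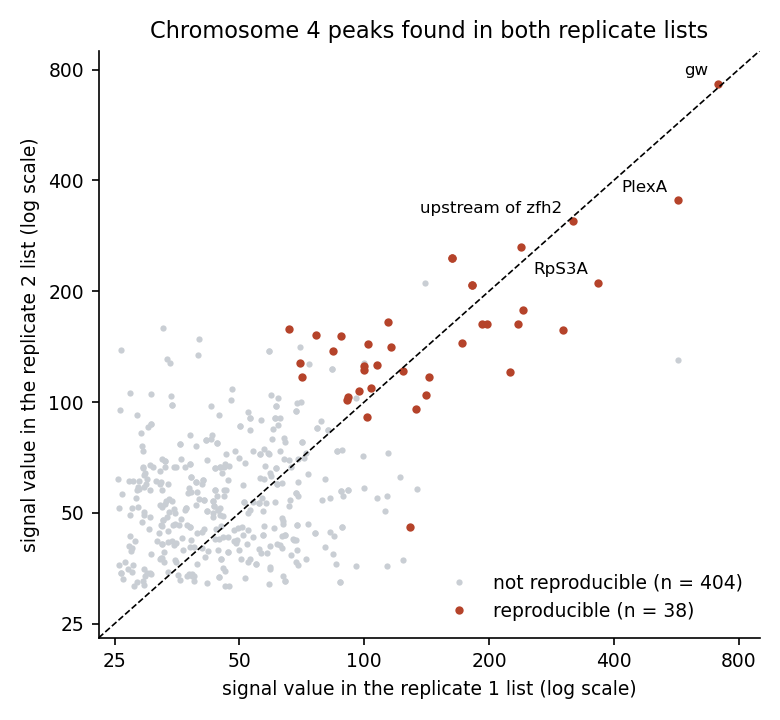
Signal value in replicate 1 (horizontal) and replicate 2 (vertical), both on log scales, for the 442 chromosome 4 peaks found in both lists; each point is a peak, red points are reproducible, and the dashed line marks equal values. The 4 highest peaks are named, gw lies near the line, and the grey point with the highest replicate 1 value is a weaker pooled peak that touches the PlexA peak.

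Nearly every protein-coding gene of chromosome 4 had a pooled peak at its start. Over the 6 arms 56.1% of 13945 coding genes had a pooled promoter summit, and on chromosome 4 it was 79 of 80 (98.8%), against 47.4% on the X and 60.2% on 3L, the lowest and highest of the others. The replicate lists gave 79 and 76 of the 80 genes, and 75 genes had one in both. This count has to be read against the density of the peaks, since 69.4% of all chromosome 4 bases lie within 1000 bp of a pooled summit, against 28.1% on the other arms. The exception was CG1909, whose nearest pooled summit was 1334 bp away, although each replicate list had a summit nearer than that.

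The reproducible list gives a smaller and less crowded picture. It put a summit at the start of 31 of the 80 coding genes (38.8%, 28.1% to 50.3%), beside 31.9% of all coding genes of the 6 arms and 28.2% to 35.5% on each other arm. Bases within 1000 bp of a reproducible summit made up 5.33% of chromosome 4 and 7.87% of the other arms. These 31 genes were served by 30 peaks, 6 of which lay near more than 1 coding gene.

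Reproducible summits on chromosome 4 sat close to the start site itself. Of the 30 summits near a coding start, 20 were upstream, and the median position was 32.5 bp upstream, with quartiles 58 bp upstream and 19 bp downstream. On the other arms the 3802 such summits had a median 92 bp upstream, with quartiles 200 bp upstream and 16 bp downstream. All 203 pooled chromosome 4 summits near a coding start were spread more widely, with a median 19 bp downstream and quartiles 205 bp upstream and 422 bp downstream.

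**Figure D4:**
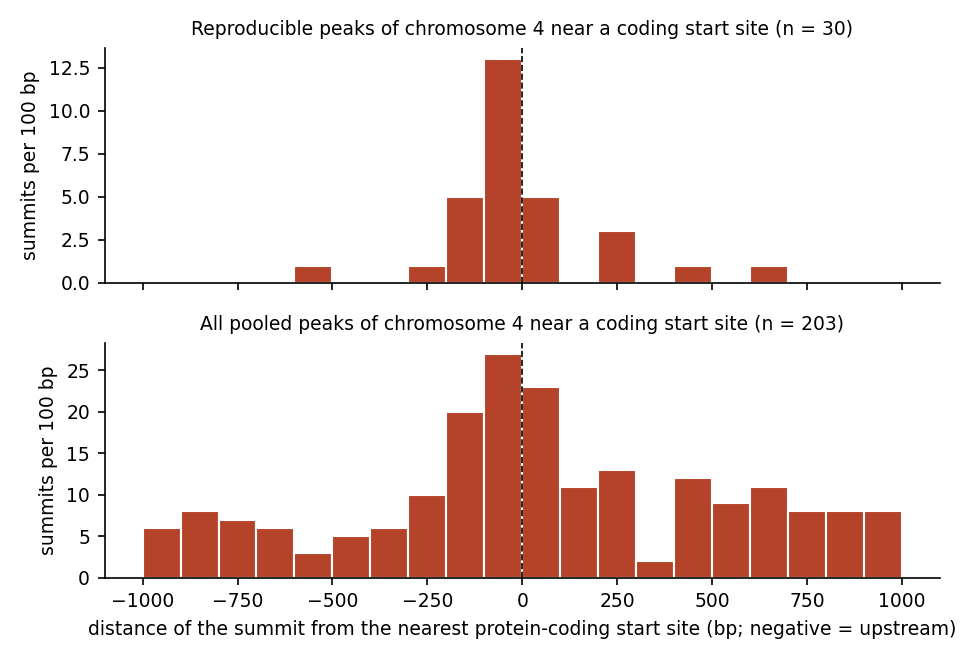
Number of chromosome 4 summits per 100 bp by distance from the nearest protein-coding start site, in the direction of the gene, for the 30 reproducible peaks (top) and all 203 pooled peaks (bottom) within 1000 bp of one. Reproducible summits crowd just upstream of the start, with a median of 32.5 bp upstream.

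Genes with general cell functions held several of the highest peaks. The highest on the chromosome lay in an intron of gw, 108 bp upstream of a start site (659921 to 660286), and had a signal value of 1387 in the pooled list, 716 in replicate 1 and 732 in replicate 2. The gene encodes gawky, the GW182 partner of Argonaute in silencing by microRNAs. RpS3A, a ribosomal protein gene, had a peak 50 bp upstream of its start with values of 599, 367 and 211 in the same order. Both were high in each replicate. By signal value gw was nearly even and RpS3A was larger in replicate 1, but gw ranked 370 in the replicate 1 list and 196 in the replicate 2 list. The 2 lists differ in scale, with median signal values of 47.7 and 54.4 on the other arms. Here and below, signal values therefore do not say which replicate was stronger.

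Among the other housekeeping and metabolic genes, Rad23, which encodes a ubiquitin receptor, had a peak of 436 pooled, 163 in replicate 1 and 246 in replicate 2. A second reproducible peak at its start, 229 in the pooled list, overlaps the same replicate peaks, so the pair is not independent. ATPsynbeta, the beta subunit of ATP synthase, and CG11076 shared 2 reproducible peaks of 356 and 352. The higher of them had 198 in replicate 1 and 163 in replicate 2. ND-49, a subunit of respiratory complex I, shared a peak of 219 with Ephrin. The promoter of apolpp, which encodes the apolipoprotein of the main blood lipoprotein, shared one of 243 with Zyx, which encodes zyxin. Zip102B had a summit 788 bp from its start that lies 48 bp from that of Rnf11, and the one counted for Tdg, 983 bp away, is the peak of Pur-alpha. With these and Gyf, 9 of the 13 genes matched in this list had reproducible promoter summits, with a median best promoter signal of 219, beside 31 of 80 genes and a median of 168 over all coding genes of the chromosome. The 4 without were eIF4G1, JYalpha, Kif3C and yellow-h. JYalpha, a Na+/K+ ATPase subunit gene, had the lowest value of the list, 70.0. The gene lists here and below were chosen with earlier results of these data known. A peak near more than 1 gene can also count in more than 1 list. The counts and medians therefore describe the lists and do not compare classes of gene.

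Of 16 signalling genes, 7 had a reproducible promoter summit, and their median best promoter signal was 189, beside the 31 of 80 and 168 of all coding genes of the chromosome. PlexA, a receptor for semaphorins, had the second highest peak of the chromosome, 122 bp upstream of its start (1027088 to 1027358). Its signal value was 913 pooled, 570 in replicate 1 and 353 in replicate 2. Asator, a tau-tubulin kinase relative, followed with 498, 302 and 157, from a summit in an intron 585 bp upstream of a start site. The signal value was larger in replicate 1 for both. Actbeta, which encodes an activin-like ligand, had 255, 91.5 and 103, and its summit was 8 bp downstream of the start. PIP4K, a phosphoinositide kinase gene, had 217 in the pooled list and 135 in replicate 1, and no peak of the replicate 2 list overlapped it, which made it the sole reproducible peak missing from a replicate. Arl4, Ephrin and Zyx complete the 7. PlexB, the other plexin, just missed the list with 204, and RhoGAP102A had the lowest value of the signalling genes, 67.2.

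Of 19 genes for transcription and chromatin factors, 7 had a reproducible promoter summit, with a list median of 139, beside the same 31 of 80 and 168. Hcf, a host cell factor that works with chromatin enzymes, had the highest, with 398 pooled, 182 in replicate 1 and 208 in replicate 2, and a second reproducible peak of 218 overlapping the same replicate peaks. The eye gene ey, a Pax6 factor, had 318, 143 and 117 from a summit 27 bp upstream of its start. Mitf, a regulator of lysosomal genes, and pho, a DNA-binding Polycomb group protein, had 260.0 and 259.6 in the pooled list. Their replicate signal values were 99.7 and 125 for Mitf and 116 and 141 for pho, the larger value being that of replicate 2 for both. MED26, a Mediator subunit gene, had 232. The gene lgs, a cofactor of Wingless signalling, had 214, and Pur-alpha 207, the lowest of the reproducible peaks. Other developmental regulators had no reproducible promoter summit, among them ci with 129, toy with 81.0, zfh2 with 72.4 and NfI with 67.8.

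None of 11 genes of neurons, synapses and muscle had a reproducible promoter summit, beside 31 of 80 coding genes of the chromosome. All 11 had a pooled one, as did 79 of the 80. The median best promoter signal of the 11 was 128, beside 168 over all coding genes. These counts depend on which genes were placed in this list and which in the others. Among genes placed elsewhere that could also belong here, CaMKII, PlexA and Ephrin had reproducible promoter summits and Eph and PlexB did not. The highest was Cals, a calsyntenin gene, with 199.5 pooled, 58.8 in replicate 1 and 138 in replicate 2, from a summit 702 bp from its start that lies nearer, at 108 bp, to the start of Arf4. The metabotropic glutamate receptor gene mGluR followed with 187, and the lowest was the GABA transporter gene Gat with 67.5, whose peak had no counterpart in replicate 1. Some of these genes are long. Their bodies held 24 pooled peaks each in unc-13 and Cadps, 23 in PMCA and 20 in bt, the giant muscle protein gene. Per 10 kb of gene body that was 5.39, 5.86, 7.49 and 3.84 in the same order, while the whole chromosome had 607 pooled peaks per Mb. In the whole chromosome the pan gene held the most, 43, or 9.57 per 10 kb.

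Outside these lists, 8 of the 21 remaining coding genes had a reproducible promoter summit, with a median best promoter signal of 175 over the 20 that had a pooled one. CaMKII, a calcium-dependent kinase gene, had 446 pooled, 235 in replicate 1 and 163 in replicate 2, and a second peak of 228 at another start. Mpv17, which encodes a protein of the inner mitochondrial membrane, had 362, 192 and 163. CG31999 had 392, 225 and 120. In all 3 the signal value was larger in replicate 1. The others were CG31998 with 269, anne with 233, 4E-T with 214 and Rnf11 with 211, and CG11076 named above. Near starts of non-coding genes alone lay the peaks at asRNA:CR44030, with 271, and asRNA:CR44029 inside unc-13, with 244. The non-coding gene sphinx had pooled promoter summits of at most 83.5 and none that was reproducible.

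Of the 39 reproducible peaks, 7 lay farther than 1000 bp from any start site. The highest of them, 646 pooled, 319 in replicate 1 and 310 in replicate 2, was intergenic, 3913 bp upstream of zfh2, whose own promoter had 72.4. A peak of 519, with 240 and 263 in the replicates, was 1275 bp upstream of the long non-coding gene CR43437. A second one of 268 lay in the same stretch, 9607 bp upstream of that gene. That stretch, the 41351 bp between dati and lgs, is the longest between coding genes and held 27 pooled peaks. The peak of 386 in a 3′ UTR where Cals and sv overlap was 91 bp wide, the narrowest width on the chromosome. The remaining 3 lay 2294 and 3821 bp upstream of ci, with 238 and 215, and inside eIF4G1, with 237.

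By annotation, 15 of the 39 reproducible summits were intergenic, 14 intronic, 8 in a 5′ UTR, 1 in a 3′ UTR and 1 in a non-coding exon. No reproducible summit was in a coding exon, which allows a share of up to 7.69%, taking 3 counts as the limit. Among the pooled chromosome 4 peaks 109 summits (13.3%) were in coding exons, which make up 19.7% of its bases, and the replicate lists gave 114 and 116. Reproducible peaks of the other arms were alike in this, with 0.671% in coding exons, 39.2% intergenic and 2.16% in a 3′ UTR. On the other arms 4.36% of pooled summits were in coding exons, which make up 17.0% of bases there. Introns held 402 chromosome 4 summits (49.1%) and intergenic sequence 154 (18.8%).

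Peaks were found along most of the chromosome. In consecutive windows of 100 kb the number of pooled peaks ran from 39 to 90, and the last 48.1 kb held 2. The window from 1000001 to 1100000 had both the most pooled peaks, 90, and the most reproducible peaks, 8, among them PlexA, Mpv17, ATPsynbeta and CaMKII. The longest stretch with no pooled peak, 46668 bp from 1272148 to 1318815, lay near the right end and consisted to 99.9% of annotated transposable elements. The second, 35747 bp from 4748 to 40494, lay near the left end and held the end of JYalpha, most of PlexB and pseudogenes. A stretch of 19224 bp inside Mitf, from 1199700 to 1218923, had 17000 unknown bases in the reference, where no read can be placed.

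Transposable elements held fewer peaks per length than the rest of the chromosome. The annotation has 566 copies of 51 families on chromosome 4, 24.8% of its bases. In them lay 83 pooled summits (10.1%), beside 1.03% of all pooled summits of the 6 arms and 0.339% to 1.48% on each other arm, whose bases are 5.74% such elements. The density was 249 summits per Mb inside elements and 725 per Mb outside. The share of summits in elements divided by the share of bases in them was 0.410 on chromosome 4 and 0.0836 to 0.191 on each other arm. INE-1, the most numerous family with 344 copies, had 50 of the 83 summits, and the replicate lists had 45 and 52. Its pooled density was 514 per Mb, against 255 for the 1360 element and 45.2 for HeT-A. The 1360 element, with 60 copies, had 13, and the telomeric elements HeT-A and TART-A had 2 and 0. None of the 39 reproducible peaks had its summit in an element. The highest summit in one had a signal value of 177. The sources used here do not say how reads that match several copies were placed, and its part in these counts was not tested.

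Base composition differed between chromosome 4 and the other arms. Chromosome 4 had 35.2% GC, against 41.6% to 42.6% on the other arms, and 27.8% of its bases were masked as repeats or simple sequence in the reference, against 20.0%. At pooled summits, 28.3% of bases were masked on chromosome 4, and 25.7% and 26.7% at those of the replicate lists, against 21.7% at pooled summits of the other arms. The summit windows of chromosome 4 had 31.8% ± 6.92 GC (SD, 818 windows), and windows 1000 bp to either side 33.5%, a difference of -1.73 percentage points. On the other arms the figures were 35.5% and 41.8%, a difference of -6.27. By this measure the dip in GC at the summit was much smaller on chromosome 4. With a median of 1037 bp between summits there, the windows 1000 bp away can lie on neighbouring peaks. They had 33.5% GC, below the 35.2% of the whole chromosome, against 41.8% and 42.2% on the other arms.

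Windows of like GC content still differed in density between chromosome 4 and the other arms where GC was low. In windows of 1000 bp with 30% to 35% GC, chromosome 4 had 803 pooled summits per Mb and the other arms 299. With 35% to 40% GC the values were 539 and 300, and with 40% to 45% they were 255 and 223. At 45% GC or more, with 5 pooled summits in 70 windows of chromosome 4, the lists differed: the pooled list had 71.4 against 121, replicate 1 had 157 against 141, and replicate 2 was again lower than the other arms, which had 127. When the other arms were weighted to the GC content of chromosome 4, they had 278 pooled summits per Mb against 615, a ratio of 2.21, and the replicate lists gave 2.24 each. The same weighting gave 0.693 for reproducible peaks, but the GC classes went both ways. Chromosome 4 had 70.1 of them per Mb against 28.7 at 25% to 30% GC, from 11 peaks, and 36.7 against 34.4 at 30% to 35%. With 35% to 40% GC it had 19.5 against 55.1, from 8 peaks, and at 40% or more it had none. The comparison by GC was chosen after the data had been seen, and the part of base composition in the density beyond it was not tested.

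**Figure D5:**
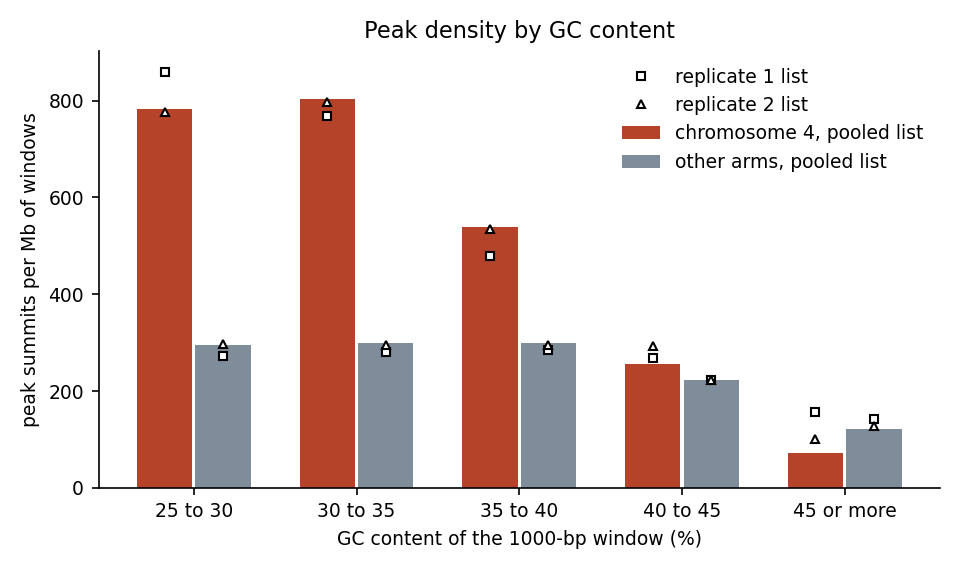
Pooled peak summits per Mb (bars) in windows of 1000 bp grouped by GC content, for chromosome 4 and the other 5 arms, with the replicate 1 and 2 lists as squares and triangles. Below 40% GC chromosome 4 is higher in every list, as with 803 against 299 at 30% to 35%, and at 45% or more it is lower in the pooled list (71.4 against 121) and higher in replicate 1 (157 against 141).

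The innermost parts of the other arms did not resemble chromosome 4 in density. The 1000000 bp of each arm nearest its centromere held 141 pooled peaks in all, or 28.2 per Mb. Chromosome 4 had 21.5 times that density, with 20.6 and 22.1 in the replicate lists. In these innermost parts 3.49% of bases lie within 1000 bp of a start site and 42.6% are masked, against 18.5% and 27.8% on chromosome 4. The part of these differences in the density was not tested. Like chromosome 4, these parts had a low median signal, 84.1, and a low share of peaks in the reproducible list, 6 of 141 or 4.26%. Presence in both replicate lists was 37.6% there, lower than on chromosome 4. This comparison too was chosen after the data had been seen.

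The Cnc-Maf word TGACNNNGC, read on both strands, was no more frequent at chromosome 4 summits than elsewhere on the chromosome. It was in 14 of 818 pooled summit windows, or 1.71% (0.939% to 2.85%), beside 2.45% of all pooled summit windows of the 6 arms. Windows 1000 bp away from the chromosome 4 summits held it in 1.96%, and 2.21% of 13347 windows of 101 bp that tile the chromosome did. Replicate 1 summits had it in 1.90% and replicate 2 summits in 1.34%. The sole reproducible match was that at Actbeta shown above. The stricter form TGACTCAGC was in none of the 818 windows, which allows a share of up to 0.367% with 3 counts as the limit, and in 2 of the tiled windows.

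Of the 14 words searched, CGATA was found in the most reproducible windows of chromosome 4. It is the repeated part of sites bound by the insulator protein BEAF-32, and also lies in the longer DRE word TATCGATA. On either strand it was in 13 of 39 reproducible windows, or 33.3% (19.1% to 50.2%), in 17.0% of pooled windows and in 13.1% of the tiled windows. Windows 1000 bp from the reproducible summits held it in 19.2%, just within that interval, and reproducible windows of the other arms in 18.3%. Most of the 13 windows held CGATA once, and TATCGATA was in 1 of the 39. The windows of Asator, pho and PIP4K printed above are among the 13. The GATA word GATAAG was in 2.20% of pooled chromosome 4 windows, 3.66% of the tiled windows and 6.48% of pooled windows of the other arms. In the replicate lists it was in 4.05% and 2.44% of windows, on either side of the tiled share. The TATA word TATAAA was in 28.4% of pooled windows, 25.6% of windows 1000 bp away and 21.6% of the tiled windows, but in 8 of 39 reproducible windows (20.5%), whose own flanks had 28.2%. The core promoter word CATCNCTA (Ohler 7), also on both strands, was in 3 of 39 reproducible windows (7.69%, 1.62% to 20.9%), 2.56% of their flanking windows, 2.62% of reproducible windows of the other arms and 0.704% of the tiled windows. A match is only a run of letters and does not show binding.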

How the data were processed

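Both replicates were analysed from peak lists that the authors deposited on dm6, with the dm3 lists as an alternative for counts and signal values. Per the deposited file lists, peaks were called on each replicate and on both together against a control; the sources used here do not name the caller, the aligner or the reproducibility threshold. Each list has, per the authors' deposited columns, a signal value, used as a score, and a −log10 q value. The pooled list and each replicate list stop at 30000 peaks. All 6153 reproducible peaks had the same interval and summit as a pooled peak and were its 6153 highest by signal value.

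Computed here with Python 3.11.15, numpy 2.4.6, pandas 2.3.3 and scipy 1.17.1: overlap of at least 1 bp (checked with bedtools 2.31.1), distances to start sites of Ensembl release 115 without transposable elements, and base content from the RefSeq genome of the same build. A promoter signal is that of the highest pooled peak with a summit within 1000 bp of a start site of the gene. The 62 names of the gene lists matched 60 genes, 3 of them by synonym; tey and Alas are not on chromosome 4. The members and lists were chosen with earlier results of these data known. Named are the 15 highest peaks, all reproducible peaks and the highest and unmatched members of the lists. All results are descriptions, since peaks are not replicates and there is 1 group; intervals are exact binomial (Clopper-Pearson), at 95%, and the limit for a count of 0 takes 3 counts of the total. The helper functions were tested on simulated data. Depth is unknown, as the lists hold no counts.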

Additional observations from a re-analysis of the deposited data

How the results depend on the processing

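No paired analysis was possible because the 2 replicates form 1 group. Of 44 alternatives to the 9 chromosome 4 values, 16 kept the value within the tolerance used and 28 did not; that was 1 SD of the replicates or the exact interval, and for the count of genes a factor of 1.5. Of the 44, 5 (those with a q value limit or without summits in transposable elements) were chosen after seeing the data.

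Peaks per Mb went from 607 to 206 among the highest 15000 peaks, 81.6 at a q value of 0.05 or lower and 526 for merged regions, and with 1 replicate alone ran from 586 to 607. The ratio of median signal values, 0.853, became 0.749 from mean log2 values and 0.857 to 0.863 with 1 replicate. The share in both replicate lists, 54.0%, became 34.4% when at least 50% of both peaks had to overlap. It was 25.9% for summits within 100 bp, 77.7% among the highest 15000 and 94.5% at the q value limit. The share overlapping the replicate 1 list was 74.2% and that overlapping the replicate 2 list 74.7%, whether or not the other list had the peak. The share in the reproducible list, 4.77%, was 7.16% on dm3, where 59 of 824 pooled peaks were reproducible, and 6.48% with any overlap. Promoter summits, 27.6%, became 17.1% within 500 bp, 12.7% within 250 bp, 41.4% among the highest 15000, 61.8% at the q value limit, 24.8% with coding start sites only and 29.3% without summits in elements, and ran from 27.0% to 28.9% with 1 replicate.

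The masked share, 28.3%, was 26.7% within 100 bp, 26.8% among the highest 15000 and 25.7% to 26.7% with 1 replicate. With 27.8% for the whole chromosome, these fall below it. The Cnc-Maf share, 1.71%, was 4.03% within 100 bp, where the window is longer, and 0.0% for TGACTCAGC. The replicate correlation, 0.366, was 0.568 as Pearson's r of log2 values and 0.418 for summits within 100 bp. The cause of these moves was not tested beyond the smaller or larger selection each setting makes. Of 80 coding genes, 79 had a promoter summit, and 61 to 79 did under every alternative tried. The lists hold no counts, so the precision of a single signal value is unknown.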
